A study of Peromyscus maniculatus with 6 samples.

Results

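Cytosolic chaperones are proteins that fold, refold and hold other proteins outside the organelles. The genes described here are those whose name in the deposited count table equals 1 of 46 listed symbols, ignoring case: the HSP70, HSP110, HSP90 and HSP40 families, their co-chaperones, the small heat shock proteins, the heat shock factors and the subunits of the TRiC and prefoldin complexes. Of the 46 symbols 31 named a row, out of 24281 genes in the table, and all 31 passed the filter on low counts. The other 15, among them Hspa1a, Hspa1b, Hsp90aa1, Hsp90ab1, Dnajb6, Chordc1, St13, Hsf2, Cct4, Cct5, Cct6a, Cct7, Cct8, Pfdn2 and Vbp1, matched no name and were not analysed here. The stress-inducible HSP70 pair and both cytosolic HSP90 genes are thus missing from every count below.

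HSP70 proteins bind exposed hydrophobic stretches of a client and release them in cycles driven by ATP. HSP40 proteins (J-proteins) deliver clients and start ATP hydrolysis, HSP110 proteins exchange the nucleotide, and the adaptor encoded by Stip1 passes clients on to HSP90. Small heat shock proteins hold unfolded clients without ATP. Prefoldin hands newly made actin and tubulin to TRiC, a ring-shaped chamber in which they fold. Heat shock factor 1, encoded by Hsf1, switches on many of these genes when unfolded protein builds up in the cytosol, whereas the unfolded protein response answers to unfolded protein in the endoplasmic reticulum (ER).

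Fibroblasts were cultured from the ears of 3 deer mice of the BW stock (Peromyscus maniculatus), aged 4 weeks and numbered BW35770, BW35772 and BW35773. For each animal there was a control library and a library of cells exposed to tunicamycin for 5 h, after 24 h in wells seeded with 300000 cells, so that n = 3 animals per group. Tunicamycin blocks N-linked glycosylation and thereby loads the ER with unfolded protein. The sources used here do not name the vehicle of the control wells.

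The 6 libraries held 37852385 to 49352126 counts on genes. Of 10 fibroblast markers 9 were in the table, and their summed level ran from 15400 to 21500 CPM (counts scaled to library size, with TMM factors) in controls and from 15800 to 20700 CPM with tunicamycin. Vim weighed most in that sum, with a mean of 9316 CPM in controls. Thy1 differed between animals, at 751.8, 85.2 and 118 CPM in the controls of BW35770, BW35772 and BW35773. Summed levels of keratinocyte markers stayed at or under 23 CPM, those of endothelial markers at or under 4.68 CPM and those of melanocyte markers at or under 0.325 CPM, with Krt1 at 0 counts and Krt5 and Trp63 close to it. Krt14 carried the keratinocyte sum, at 4.52, 8.99 and 22.7 CPM in the controls of BW35770, BW35772 and BW35773 and 2.23, 3.92 and 12.2 CPM in their treated libraries. It was lower in all 3 pairs, was not called without the block and was called lower with it (log2 fold change -1.04, edgeR adjusted p = 0.02), and its part in the results was not tested. Immune markers summed to 69 to 176 CPM, nearly all of it from Cd68, while Cd3e was at 0 counts. The 6 cartilage markers summed to 1870 and 2070 CPM in the control and treated libraries of BW35770 and to 6130 to 8880 CPM in the other 4 libraries. In the controls of BW35770, BW35772 and BW35773 the cartilage marker Col2a1 stood at 742.6, 5999 and 4538 CPM. The fibroblast marker Col1a1 stood at 1107, 2857 and 2708 CPM there, below Col2a1 in BW35772 and BW35773. Of the 5 tested cartilage markers 0 were called between treatments in edgeR without the block. Over all tested genes 0.792% were called lower and 1.78% higher there, so 0 of 5 does not show that cartilage content was even. Sox9 stood at 238.6, 308.2 and 309.3 CPM in controls and 237.7, 208.9 and 223.9 CPM with tunicamycin, all treated libraries below all controls (log2 fold change -0.35 ± 0.14, edgeR adjusted p = 0.278). In bulk RNA, fewer cells of a type and less RNA per cell cannot be told apart.

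After 5 h of tunicamycin, 5 of the 31 genes were lower and 0 were higher (edgeR quasi-likelihood test, Benjamini-Hochberg adjusted p under 0.05 over 13503 tested genes). The 5 were Hspa8, Dnajb1, Hsph1, Dnaja1 and Stip1, which serve the HSP70 cycle and the hand-over to HSP90. They make up 16.1% of the members, where 0.792% of all tested genes were called lower and 1.78% higher. With the animal as a block, which pairs each treated library with the control of the same animal, 10 members were lower and 0 higher, against 2.4% of all genes lower and 3.07% higher. Hspa2, Fkbp4, Hspb1, Cryab and Bag3 were added in that fit. At an unadjusted p under 0.05 the fit without the block had 13 members lower and 1 higher, against 6.64% of all genes lower and 8.88% higher. In limma-voom 5 members were lower and 0 higher, against 0.77% and 1.61% of all genes. DESeq2 called 11 members lower and 1 (Dnajb5) higher, against 2.97% and 5.01% of all genes.

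The median log2 fold change was -0.25 over the 31 members and -0.01 over all tested genes. All 3 treated libraries lay below all 3 controls for 15 members and above them for 1, while 9.98% of all tested genes lay wholly below and 12.3% wholly above. The treated library was below the control of its own animal in all 3 pairs for 19 members, against 21.7% of all genes, and above it for 1 (Dnajb5), against 20.7%. Together the 31 genes took 1.25 to 1.35% of the counts in control libraries and 0.745 to 0.964% in treated ones. Their summed level dropped by 31.6% in BW35770, 46% in BW35772 and 35.6% in BW35773. Most of that drop came from Hspa8 and Cryab. The mean sum was 13260 CPM in controls and 8274 CPM with tunicamycin, of which Hspa8 held 3336 and 1052 CPM and Cryab 3664 and 2181 CPM.

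**Figure D1:**
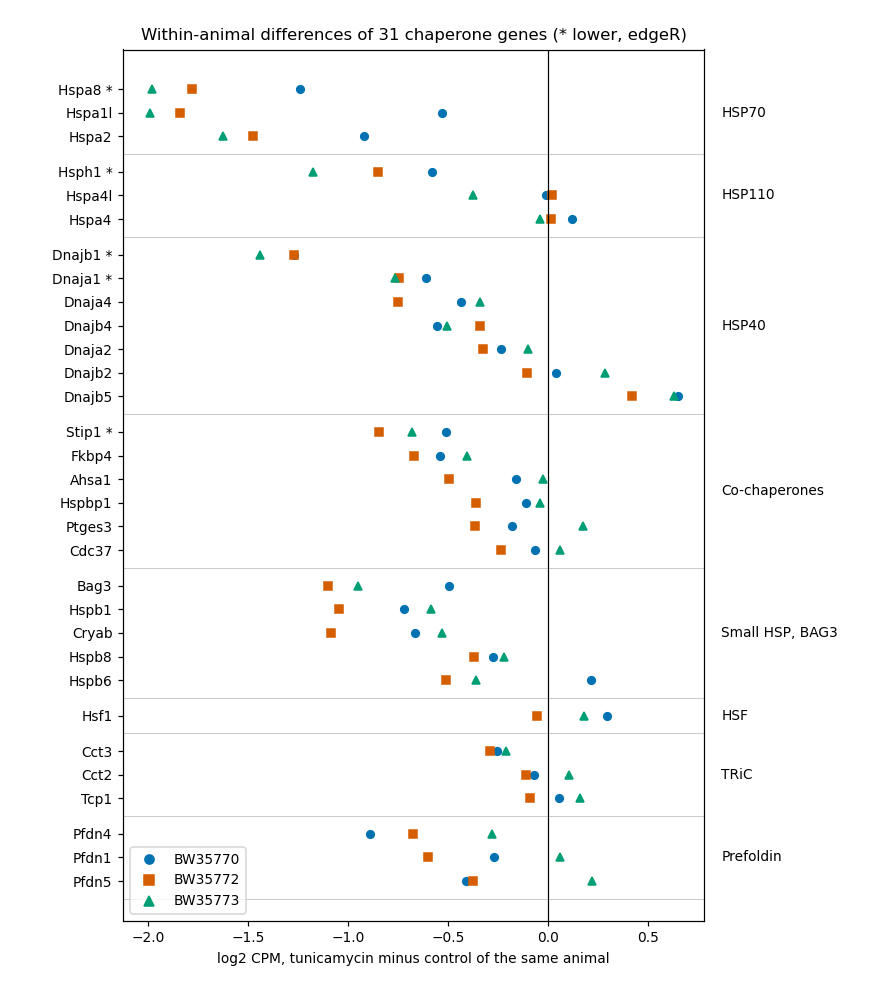
Difference in log2 CPM between the tunicamycin and the control library of the same animal, for the 31 chaperone genes ordered by role, with 1 symbol per animal. The horizontal axis is the difference, the vertical line marks 0, and asterisks mark the 5 genes called lower by edgeR; the 3 HSP70 genes and Dnajb1 lie left of 0 in every animal and Dnajb5 alone lies to the right of 0 in all 3 animals.

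Among the HSP70 proteins the constitutive HSC70, encoded by Hspa8, dominated and fell (ENSPEMG00000019570, scaffold KI615472.1, bases 780788 to 785037 on the plus strand, 9 exon intervals). Its control level was 2885, 3444 and 3680 CPM in BW35770, BW35772 and BW35773, and its treated level 1222, 1002 and 931.6 CPM. Every treated library lay far below every control, and the animal with the lowest control level kept the highest treated level. The log2 fold change was -1.67 ± 0.17 (SE, edgeR adjusted p = 0.0045), a loss of 68.5% of the message. Hspa8 ranked 22nd in mean control CPM among all genes of the table and 102nd in treated CPM. It was called lower in all 19 alternative fits, with log2 fold changes from -1.88 to -1.48.

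The other 2 listed HSP70 genes in the table, Hspa2 and Hspa1l, were scarce. Hspa2, best known from the testis in mice and rats, stood at 10.9, 6.80 and 7.48 CPM in controls and at 5.72, 2.41 and 2.39 CPM with tunicamycin, in the same order of animals. Hspa1l, the HSP70 gene that lies beside the inducible pair in mammals, stood at 2.72, 4.85 and 7.18 CPM in controls and 1.87, 1.32 and 1.77 CPM with tunicamycin. Both genes were lower in every animal, and in both the animals' controls differed by more than 1.5 times. Neither was called without the block (Hspa2 log2 fold change -1.25 ± 0.40, edgeR adjusted p = 0.175; Hspa1l -1.57 ± 0.39, adjusted p = 0.0999). Pairing by animal called Hspa2 lower (-1.35 ± 0.23, edgeR adjusted p = 0.02) and left Hspa1l just outside (adjusted p = 0.0596). The blocked call for Hspa2 held without BW35772 (0.00122) or BW35773 (0.0302) and was lost without BW35770 (0.138). DESeq2 called both lower (adjusted p = 0.0302 for Hspa2 and 0.00415 for Hspa1l). HSP70 coding sequences are close to each other, so reads on Hspa1l and Hspa2 may belong in part to Hspa8 or to family members not analysed here. In controls Hspa8 had 122040 to 147060 counts, Hspa1l 115 to 287 and Hspa2 248 to 459. The falls of Hspa1l and Hspa2 can thus not be taken as independent of that of Hspa8, and this was not tested.

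HSP110 proteins act as nucleotide exchange factors for HSP70, and their 3 genes did not move together. Hsph1, the heat-inducible member (scaffold KI615441.1, bases 631072 to 650999), stood at 428.3, 386.6 and 457.9 CPM in controls and at 286.4, 214.9 and 202.9 CPM after treatment. It fell by 0.85 on the log2 scale (SE 0.16, edgeR adjusted p = 0.0407), and every treated library was below every control. Hspa4, with a similar abundance in controls, stood at 457.8, 406.2 and 419 CPM in controls and 497.7, 410.4 and 408.1 CPM with tunicamycin, a log2 fold change of 0.04 ± 0.13 (adjusted p = 0.941) with overlapping groups. Per kilobase of exon, the ratio of Hsph1 to Hspa4 was 1.25, 1.27 and 1.45 in the controls of BW35770, BW35772 and BW35773 and 0.766, 0.697 and 0.662 in their treated libraries. Hspa4l, the least abundant of the 3, had a log2 fold change of -0.11 ± 0.17 (adjusted p = 0.858). The call for Hsph1 was lost with library size as the sole scaling (edgeR adjusted p = 0.054), in 5 of 6 fits without a single library (0.0662 to 0.194, kept without the treated library of BW35770 at 0.0342) and in the blocked fit without animal BW35770 (0.0932).

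Of 7 HSP40 genes 2 fell. Dnajb1, the main heat-inducible J-protein and partner of HSP70 (scaffold KI615959.1, bases 61179 to 64911, 3 exon intervals), had the smallest SE of the 31 members. Controls stood at 101.2, 103.1 and 108.1 CPM and treated libraries at 42, 42.8 and 39.7 CPM. The change was -1.33 ± 0.10 on the log2 scale (edgeR adjusted p = 0.00118), it differed little between animals (-1.27, -1.27 and -1.44), and it was called in all 19 alternatives. Dnaja1, a farnesylated J-protein that assists HSC70 (scaffold KI615375.1, bases 9750232 to 9761295), went from 218.8, 192.6 and 196.7 CPM to 143.4, 115 and 115.9 CPM. It fell by 0.70 on the log2 scale (SE 0.13, edgeR adjusted p = 0.0383). The call was lost without any single library (0.0528 to 0.162) and in the blocked fit without BW35770 (0.181), with log2 fold changes from -0.81 to -0.63.

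The remaining HSP40 genes were not called in either fit. Dnaja2, another class A J-protein, stood at 158.4, 144.6 and 149.9 CPM in controls and 134.6, 115.3 and 139.8 CPM with tunicamycin (-0.22 ± 0.12 on the log2 scale, edgeR adjusted p = 0.442). The treated values of Dnaja2 were all below the controls, but by a smaller margin than those of Dnaja1: the per-kilobase ratio of Dnaja1 to Dnaja2 was 1.35 to 1.42 in controls and 0.851 to 1.09 in treated libraries. Dnaja4 and Dnajb4 had log2 fold changes of -0.50 ± 0.16 and -0.47 ± 0.13 (adjusted p = 0.184 and 0.128), and both lay below the controls in every treated library. DESeq2 called Dnajb4 lower (adjusted p = 0.0368), and edgeR called both lower with the exon length trend removed and the animal as a block (0.035 for Dnaja4 and 0.0326 for Dnajb4). Dnajb2, a J-protein with ubiquitin-interacting motifs, was level at 0.08 ± 0.13. Dnajb5 alone pointed up, from 10.1, 10.1 and 9.21 CPM to 15.8, 13.5 and 14.3 CPM (log2 fold change 0.57 ± 0.16, edgeR adjusted p = 0.123), and DESeq2 called it higher (adjusted p = 0.00706).

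**Figure D2:**
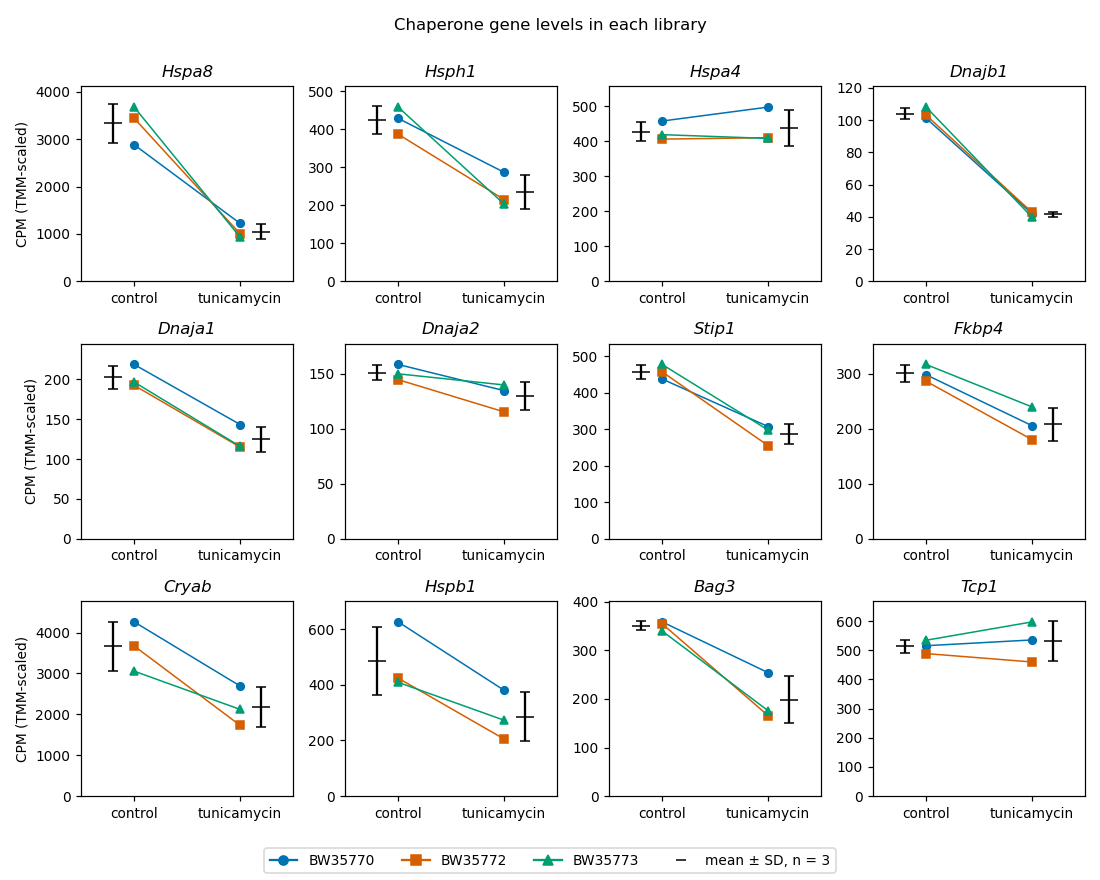
TMM-scaled CPM of 12 chaperone genes in each library, with a line joining the control and tunicamycin library of each animal and a bar for the mean ± SD of 3 libraries. Vertical axes start at 0; Hspa8, Dnajb1 and Stip1 drop with no overlap of the groups, whereas Hspa4 and Tcp1 do not separate.

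Co-chaperones of HSP90 followed the same division. Stip1 (HOP), the adaptor between HSP70 and HSP90 (scaffold KI615462.1, bases 4075107 to 4094904), stood at 437.8, 457.5 and 477.6 CPM in controls and at 307.4, 255.1 and 297.9 CPM after treatment. It fell by 0.67 on the log2 scale (SE 0.12, edgeR adjusted p = 0.0356), with all treated libraries below all controls. Its call was lost in 5 of 6 fits without a single library (0.0733 to 0.188, kept without the treated library of BW35773 at 0.0486) and in the blocked fit without BW35770 (0.213). Fkbp4, the immunophilin FKBP52, went from 298.3, 286.5 and 317 CPM to 205.6, 180.2 and 239.7 CPM. Its change of -0.53 ± 0.14 was not called without the block (edgeR adjusted p = 0.107) and was called with it (-0.54 ± 0.11, adjusted p = 0.0402). Of the blocked fits without an animal, the one without BW35773 kept that call (0.021), and those without BW35770 (0.431) and BW35772 (0.108) lost it.

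The other co-chaperones were not called in either fit. Ahsa1, which speeds the ATPase of HSP90, changed by -0.20 ± 0.17 on the log2 scale. Cdc37, which brings kinases to HSP90, stood at 302 ± 17.1 CPM (SD, n = 3) in controls and 287 ± 37.2 CPM with tunicamycin. Ptges3 (p23), which steadies the closed state of HSP90, was the most abundant of the group at 597 ± 56.7 and 556 ± 122 CPM. Hspbp1, an exchange factor for HSP70, stood at 87.5 ± 8.99 and 78.6 ± 15 CPM. For all 4 the treated and control libraries overlapped, and adjusted p-values lay between 0.665 and 0.881.

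Cryab, which encodes the small heat shock protein alpha-B-crystallin (scaffold KI615338.1, bases 3427415 to 3432489, minus strand), was the most abundant member, ranking 18th in mean control CPM among all genes. It stood at 4262, 3673 and 3057 CPM in controls and at 2693, 1730 and 2121 CPM with tunicamycin. Hspb1 (HSP27) stood at 626.1, 424 and 408.9 CPM in controls and at 380.2, 205.2 and 272.7 CPM. In both genes the treated libraries lay below all controls, and BW35770 had the highest level in each group; this animal also had the lowest summed cartilage markers (1870 and 2070 CPM), and the part of that difference in these levels was not tested.

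These animal differences entered the error of the fit without the block. There Cryab stood at -0.75 ± 0.21 in log2 fold change and Hspb1 at -0.77 ± 0.26, and neither was called (edgeR adjusted p = 0.134 and 0.205). Pairing by animal gave -0.76 ± 0.15 (adjusted p = 0.0313) and -0.78 ± 0.13 (adjusted p = 0.0181), both called lower. Without BW35770 both blocked calls were lost (0.304 for Cryab and 0.212 for Hspb1), and both held without BW35772 (0.0312 and 0.0128) or BW35773 (0.0254 and 0.0111). Per kilobase of exon, Cryab stood above Hspb1 by a ratio of 5.74, 7.31 and 6.31 in the controls of BW35770, BW35772 and BW35773 and of 5.98, 7.11 and 6.56 in their treated libraries, so the ratio moved less with treatment than between animals.

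Hspb6 and Hspb8 were not called in either fit, and their difference from Cryab and Hspb1 was not tested. Hspb6 (HSP20) stood at 75.4, 112.2 and 64.9 CPM in controls and 87.6, 78.8 and 50.6 CPM with tunicamycin, up in BW35770 and down in the other animals (log2 fold change -0.22 ± 0.26, edgeR adjusted p = 0.795). Hspb8 (HSP22) stood at 366.5, 285.5 and 283 CPM and then at 302.7, 221.2 and 242.8 CPM (-0.29 ± 0.17, adjusted p = 0.489, and 0.182 with the block), lower in all 3 pairs by 0.28, 0.37 and 0.22 on the log2 scale. Bag3, the scaffold that joins HSPB8 to HSP70 for selective autophagy, went from 358.6, 354.7 and 339.8 CPM to 254.1, 165.6 and 175.7 CPM. With -0.82 ± 0.18 on the log2 scale it missed the threshold without the block (edgeR adjusted p = 0.0625) and passed it with the block (-0.85 ± 0.14, adjusted p = 0.0192), with DESeq2 (0.0012), without the low-count filter (0.0447) and with the exon length trend removed (0.0342). The blocked call held without BW35772 (0.00513) or BW35773 (0.0284) and was lost without BW35770 (0.0764).

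Libraries differed in how counts changed with the exon length of a gene, which touches the short small heat shock and prefoldin genes. Among 2376 tested genes of at most 1000 exon bases the median log2 difference was -0.29 in BW35770, -0.44 in BW35772 and 0.15 in BW35773, and among 2359 genes of over 4000 exon bases it was 0.13, 0.18 and -0.18. Hspb1 has 939 exon bases and Cryab 1113. With that trend removed and the animal as a block, Hspb1 changed by -0.67 and Cryab by -0.68 (edgeR adjusted p = 0.00292 and 0.00438). With it removed and no block they changed by -0.65 and -0.67, and neither was called (adjusted p = 0.208 and 0.108). Across the 31 members, Spearman's rho between log2 fold change and exon length was -0.0044, and with control level -0.075, where over all 13503 tested genes it was 0.17 and -0.083. These are descriptions across genes that share the same 6 libraries.

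Hsf1, the gene of the heat shock factor itself, was not called. It stood at 52.1, 54.5 and 57.1 CPM in controls and 63.9, 52.5 and 64.8 CPM with tunicamycin, with overlapping groups (0.15 ± 0.12 on the log2 scale, edgeR adjusted p = 0.677). HSF1 activity is set mainly by the protein's release from chaperones, its trimerisation and its phosphorylation, and none of these was measured.

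The 3 listed TRiC subunits in the table were level or nearly so. Tcp1 (CCT1) stood at 515.8, 488.8 and 534.6 CPM in controls and 535.6, 460 and 597.5 CPM with tunicamycin (log2 fold change 0.05 ± 0.14, edgeR adjusted p = 0.923). Cct2 stood at 267.3, 225.9 and 266.4 CPM and then at 254.7, 209.1 and 287.1 CPM (-0.02 ± 0.15, adjusted p = 0.98). Cct3 was lower in all 3 animals by a small amount, from 515.4, 442.6 and 493.8 CPM to 431.5, 362.8 and 427.5 CPM, and was not called without the block (-0.25 ± 0.13, adjusted p = 0.421) or with it (adjusted p = 0.242). Each subunit occupies 1 place in either ring of the complex. Per kilobase of exon, Tcp1 exceeded Cct2 by a ratio of 1.81 to 2.03 in controls and 1.95 to 2.06 in treated libraries. Cct3 exceeded Cct2 by 1.85 to 1.96 and by 1.49 to 1.73. Cct6b, a TRiC gene outside the listed symbols, was scarce, with means of 8.02 CPM in controls and 8.35 CPM with tunicamycin (0.06 ± 0.25, edgeR adjusted p = 0.953).

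Of the listed prefoldin subunits 3 were in the table, and none was called in either fit. Pfdn1 stood at 86.3, 56.5 and 65.6 CPM in controls and 71.6, 37.3 and 68.5 CPM with tunicamycin, and Pfdn5 at 78.9, 65.6 and 73.8 CPM and then 59.5, 50.6 and 86 CPM. Both were down in BW35770 and BW35772 and up in BW35773. Their log2 fold changes were -0.23 ± 0.27 and -0.16 ± 0.20 (edgeR adjusted p = 0.781 and 0.815). Pfdn4 was near the lower end of detection, with 96 to 195 counts per library (-0.57 ± 0.33, adjusted p = 0.48). With the length trend removed and no block, the log2 fold change was -0.19 for Pfdn1, -0.48 for Pfdn4 and 0.000655 for Pfdn5. With the block it was -0.21, -0.49 and 0.000256, and none was called. Pfdn6, a prefoldin subunit outside the listed symbols, went from 111.1, 108.1 and 116.6 CPM to 66, 53.1 and 113.6 CPM. It was lower in all 3 pairs and not called without the block (-0.53 ± 0.26, edgeR adjusted p = 0.396) or with it (adjusted p = 0.122). It passed in 3 of 19 alternative fits.

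**Figure D3:**
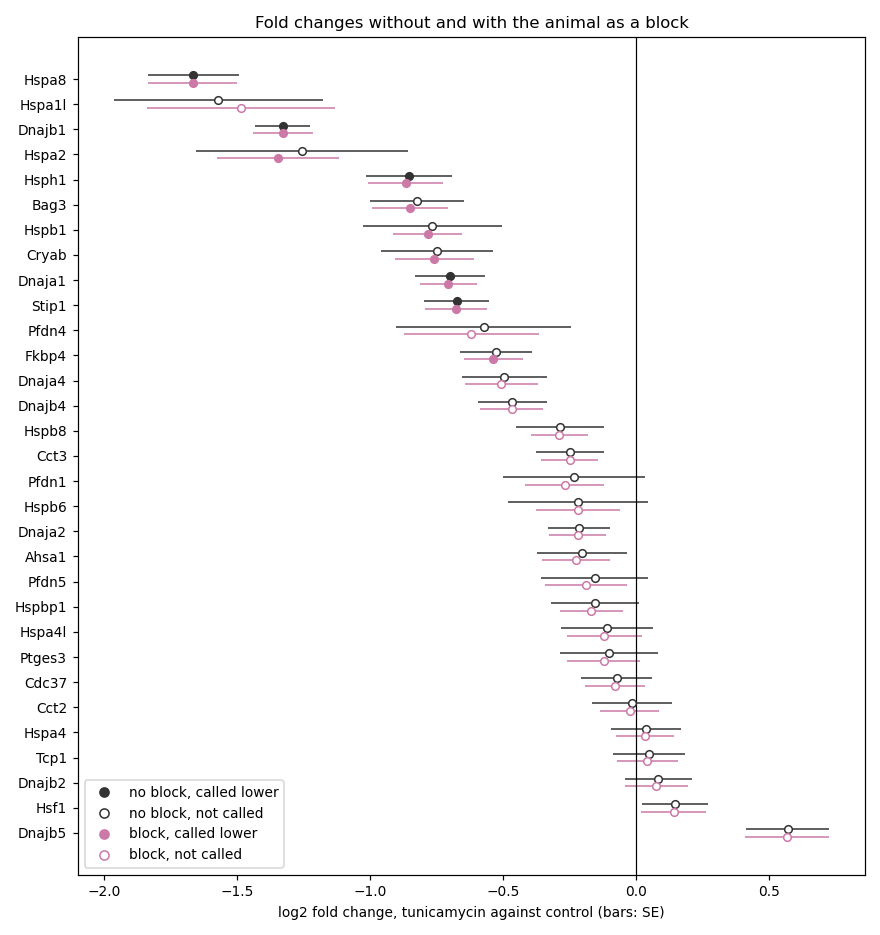
Log2 fold change (horizontal axis, bars are SE) of the 31 genes between tunicamycin and control, from the edgeR fit without the block (dark) and with the animal as a block (pink). Filled points are genes called lower at an adjusted p under 0.05, 5 without and 10 with the block; estimates hardly differ between the fits, while the SE of Hspb1, Cryab and Hspa2 shrinks.

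Set side by side, the HSP70, HSP110 and HSP40 genes had 4 of 13 members lower and a median log2 fold change of -0.50. Of the 4 small heat shock genes 0 were called lower without the block and 2 with it, with a median of -0.52. The 6 listed TRiC and prefoldin genes leave out Pfdn6 and Cct6b. Of these 6 listed genes 0 were called in either fit, by DESeq2, by limma-voom or at an unadjusted edgeR p under 0.05. Their median was -0.20. Over all tested genes edgeR called 0.792% lower and 1.78% higher without the block, and 2.4% and 3.07% with it. The shares were 2.97% and 5.01% by DESeq2, 0.77% and 1.61% by limma-voom, and 6.64% and 8.88% at the unadjusted edgeR p. At such shares 0 of 6 does not set these genes apart from other genes. Taken apart, the 3 listed HSP70 genes had a median of -1.57, the 3 HSP110 genes -0.11 and the 7 HSP40 genes -0.47. All 3 listed HSP70 genes lay below the controls in every treated library, which does not hold for Hspa13 and Hspa14. Log2 fold changes ran from -0.85 to 0.04 among HSP110 genes and from -1.33 to 0.57 among HSP40 genes. These are counts and medians of small lists, and the differences between lists were not tested.

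The summed levels of the classes also differed in which animal changed most. Single genes carried 2 of these sums. In controls Hspa8 had a mean of 3336 of the 3349 CPM of the 3 listed HSP70 genes. Cryab had 3664 of the 4546 CPM of the small heat shock genes. The summed level of the 3 HSP70 genes dropped by 57.6% in BW35770, 70.9% in BW35772 and 74.7% in BW35773, and that of the 3 HSP110 genes by 11.1%, 20.4% and 30.1%. The 7 HSP40 genes dropped by 24.3%, 29.3% and 21.3%. For the 4 small heat shock genes the drop was 35%, 50.3% and 29.5%, largest in BW35772. The 6 co-chaperones dropped by 16.9%, 29.6% and 8.63%, also most in BW35772. The 3 listed TRiC genes changed by -5.86%, -10.8% and 1.31% and the 3 listed prefoldin genes by -21.3%, -28.3% and 9.84%. The median log2 difference of genes of at most 1000 exon bases had the same signs as the prefoldin sum (-0.29, -0.44 and 0.15). The part of exon length in that sum was not tested. With 1 pair of libraries per animal, differences between animals have no replicate and were not tested.

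Other genes of the same machinery were looked up from lists drawn up beside the members. The lists held relatives and cofactors of HSP70, cofactors of HSP90, and further subunits and helpers of TRiC, prefoldin and tubulin folding. They also held other genes known as HSF1 targets, and mitochondrial relatives. In all, 35 further genes were tested. Of these 0 were called in edgeR with or without the block or in limma-voom, 3 were lower and 5 higher at an unadjusted edgeR p under 0.05, where 6.64% and 8.88% of all genes were. DESeq2 called 0 lower and 2 higher, against 2.97% and 5.01% of all genes (Fnip1, an HSP90 co-chaperone, and Ier5, an immediate early gene known as an HSF1 target). Their median log2 fold change was 0.02. Hspa13 and Hspa14 bear HSP70 family names but are not among the 46 symbols. Hspa13 had a mean of 71.2 CPM in controls and 89.1 CPM with tunicamycin (0.32 ± 0.13, edgeR adjusted p = 0.296). All its treated libraries lay above all its controls. Hspa14 had 26.3 and 29.2 CPM with overlapping groups (0.15 ± 0.19, adjusted p = 0.805). Bag1, Bag4 and Bag5, which like Bag3 bind HSP70 through a BAG domain, had 0.01 ± 0.12, 0.24 ± 0.16 and 0.33 ± 0.11. Bag6 had -0.10 ± 0.13. Stub1 (CHIP), the ubiquitin ligase that competes with Stip1 for HSP70 and HSP90, had -0.02 ± 0.14. Serpinh1, the collagen chaperone HSP47 and an HSF1 target that resides in the ER, stood at 2788, 4152 and 4150 CPM in controls and 2753, 3645 and 4002 CPM with tunicamycin (-0.09 ± 0.22, edgeR adjusted p = 0.911). Hsbp1, whose protein binds HSF1, stood at 109.7, 117.3 and 116.2 CPM in controls and 73.1, 58.2 and 102 CPM with tunicamycin, below the controls in every treated library but not called (-0.56 ± 0.20, adjusted p = 0.228). The other HSF1 targets tested had log2 fold changes of 0.70 ± 0.19 (Ier5, adjusted p = 0.127) and -0.21 ± 0.18 (Mrpl18, 0.697). Of the 35 genes, Hsbp1, Pfdn6, Txndc9 and Tbca passed the threshold in 3 of 19 alternative fits each, Fnip1 and Ier5 in 2 and Tbcc in 1, and the others in 0.

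The ER holds relatives of the same families, and of the 6 listed as such 4 were called higher and 0 lower (5 of 6 higher with the block). Hspa13 and Dnajb12, also linked to the ER, were counted with the cofactors above. Neither was called (log2 fold changes 0.32 ± 0.13 and 0.27 ± 0.14, edgeR adjusted p = 0.296 and 0.411). Over all tested genes 1.78% were called higher and 0.792% lower without the block, and 3.07% and 2.4% with it. Hspa5 (BiP), the HSP70 of the ER, stood at 1327, 1759 and 1443 CPM in controls and 4250, 3983 and 4334 CPM with tunicamycin (log2 fold change 1.47 ± 0.16, edgeR adjusted p = 0.00512), and the call was lost when the control of BW35773 was left out (0.0561) and in the blocked fit without BW35770 (0.0577). Hyou1, the HSP110 relative, changed by 0.80 ± 0.12 and Dnajc3, a J-protein also called p58IPK, by 0.76 ± 0.12 (edgeR adjusted p = 0.0211 each); each call was lost without any control library or without the treated library of BW35770 (0.0564 to 0.139 for Hyou1 and 0.0623 to 0.132 for Dnajc3), and in the blocked fit without BW35770 (0.137 and 0.176). Dnajb9, another ER J-protein, changed by 2.55 ± 0.15 (adjusted p = 0.00049). Hsp90b1 (GRP94), the HSP90 of the ER, had 0.65 ± 0.14 and was called with the block (adjusted p = 0.062 without and 0.0324 with it). Dnajb11, an ER J-protein that works with BiP, was not called: it stood at 147.5, 171.6 and 159.2 CPM in controls and 170.9, 163 and 204.7 CPM with tunicamycin (0.17 ± 0.13, adjusted p = 0.624).

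In 3 pairs of a cytosolic and an ER gene, chosen after their values were seen, the order of the levels was turned over in all 3 animals. Per kilobase of exon, Hspa8 exceeded Hspa5 by a ratio of 2.38, 2.14 and 2.79 in the controls of BW35770, BW35772 and BW35773, and the ratio was 0.315, 0.275 and 0.235 in their treated libraries. For Hsph1 over Hyou1 it was 1.83, 1.63 and 2.22 in controls and 0.786, 0.502 and 0.525 in treated libraries. For Dnajb1 over Dnajb9 it was 2.03, 1.70 and 2.51 and then 0.146, 0.14 and 0.13. Other pairs differ: per kilobase of exon, Dnajb1 (47.1 CPM in controls) was already below Dnajb11 (83.7) and Dnajc3 (71.8). These ratios are levels of message and say nothing of the amounts of protein.

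**Figure D4:**
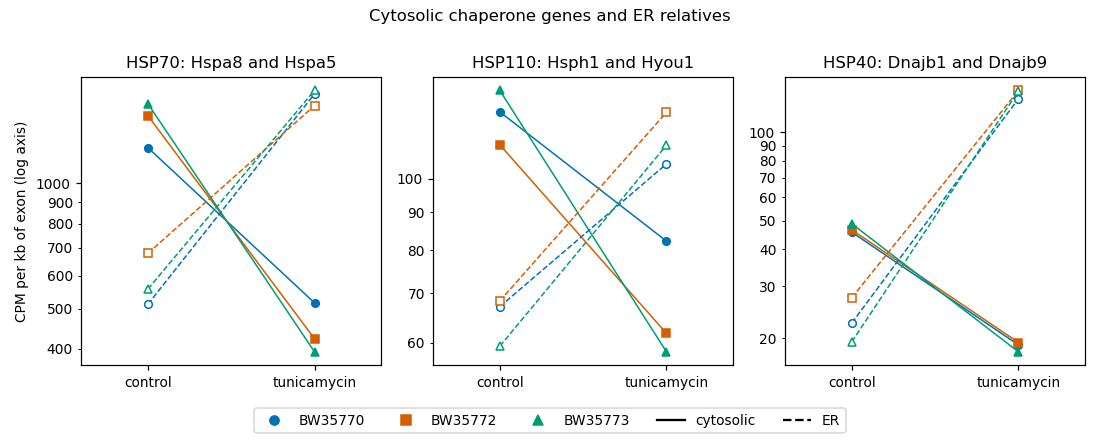
CPM per kilobase of exon (log axis) in control and tunicamycin libraries for a cytosolic gene (filled symbols, solid lines) and an ER relative (open symbols, dashed lines) of the HSP70, HSP110 and HSP40 families, 1 line per animal. In each panel the cytosolic gene is the higher in all 3 controls and the lower in all 3 treated libraries.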

How the data were processed

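The authors deposited 1 table of raw whole-number counts per gene for the 6 libraries, with exon bounds, scaffold and strand. The submitters' processing notes name STAR 2.6.1, SAMtools 1.6, featureCounts and Subread. Genome build, annotation release and the counting of reads with several matches, which matters for HSP70 genes, are not stated, and coordinates are as the table gives them. Libraries were directional per the labels' protocols. Of 24281 genes 6252 have no name, and they held 22.1 to 26.1% of the counts.

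The main test was edgeR 4.0.16 (R 4.3.3): filterByExpr with a minimum count of 10 and minimum total of 15, TMM factors, and a two-sided quasi-likelihood test of treatment alone, adjusted by Benjamini-Hochberg over 13503 genes at 0.05. The SE is the size of the log2 fold change over the square root of F. Within-pair differences use log2 CPM (prior count 2). Titles name the animal of each library. Across genes, the paired libraries' deviations from their group means had correlations of 0.656, 0.408 and 0.217, so the value with the animal as a block stands beside a result whose call it changes. The p-values reflect variation between cultures of 3 animals.

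Alternatives tried were the block, other scalings and filters, DESeq2 1.42.0, limma-voom (limma 3.58.1), removal of each library's lowess trend with exon length, and leaving out libraries or animals. The edgeR fits with and without the block, DESeq2 and limma-voom were tried on simulated counts that held no animal effect and no exon length trend. The other alternatives were not tried on simulated counts. The members and lists were chosen with earlier results of these data known. All 31 members and the listed ER and mitochondrial relatives are named. No gene of the other lists was called in the edgeR fits with or without the block. Fnip1, Ier5, Stub1, Serpinh1, Hsbp1, Mrpl18, Pfdn6, Txndc9, Tbca, Tbcc, Krt14, Vim, Thy1, Col1a1, Col2a1, Bag1, Bag4, Bag5 and Bag6, the ratios between genes and the exon length classes were chosen after values were seen. So were Hspa13, Hspa14, Dnajb12, Cct6b and Sox9. The mitochondrial relatives Trap1 and Dnaja3 had log2 fold changes of -0.04 and 0.50 and were not called. Hspa9, Hspd1 and Hspe1, also listed as mitochondrial relatives, matched no name.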

Additional observations from a re-analysis of the deposited data

How the results depend on the processing

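The fit without the block called 348 genes, 107 lower and 241 higher, and 5 members, all lower. The replicate block gave 739 genes (324 lower, 415 higher) and 10 members, all lower. DESeq2 gave 1077 genes (401 and 676) and 12 members (11 lower, 1 higher). Removing the exon length trend gave 194 genes lower and 6 members, and with the block 1477 genes (752 and 725) and 13 members, all lower. Blocked fits without animal BW35770, BW35772 or BW35773 gave 111, 948 and 1632 genes (37, 451 and 826 lower; 74, 497 and 806 higher) and 2, 10 and 11 members, all lower. Without single libraries and without the block, genes called ran from 65 to 564 (15 to 251 lower, 46 to 313 higher) and members called from 2 to 4, all lower. In these fits animal differences count as error.

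Hspa8 and Dnajb1 were called lower in all 19 alternatives. Hsph1, Dnaja1 and Stip1 were called lower in 12, 12 and 13 of them. No called direction was reversed in any of them for a member or a listed gene. The other scalings, filters and limma-voom gave 4 to 6 members lower and 0 higher, where 87 to 123 of all genes were lower and 218 to 296 higher. The median over all genes moved by less than 0.1 under every scaling. Cct3 and Dnaja2 lay below the controls in all treated libraries and did not pass the threshold adjusted over 13503 genes. Counting error weighs most on Pfdn4 and Hspa1l, which had at most 287 counts in any library.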
